A study of Arabidopsis thaliana with 8 samples.

Results

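The first response of wild-type Arabidopsis thaliana seedlings to ethanol was followed as the change in transcript level from 0 to 2 h. The values came from the wild-type channel of the arrays labelled 0 and 2 hours, which is Cy3 in replicate S and Cy5 in replicate I. These are 4 of the 16 channels of the series, 2 at each time.

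In plant cells alcohol dehydrogenase oxidises ethanol to acetaldehyde, aldehyde dehydrogenase turns that into acetate, and acetate enters metabolism as acetyl-CoA. Handling, wetting and touch switch on a different set of genes within minutes, among them calmodulin-like TCH genes, WRKY and ZAT transcription factors and enzymes of the cell wall, and most of these transcripts decline again within hours. Plants in constant light also follow their circadian clock, in which the morning MYB-like factors CCA1 and LHY and the evening genes around TOC1 repress each other, so that transcript levels move with time alone.

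The 2-colour arrays compared a line called Alc::LHY, in which an additional copy of LHY is placed under an ethanol-inducible switch, with wild type of the same Col-0 background. All seedlings had been raised on agar for 2 weeks with 12 h of light a day and had then spent 17 h in continuous light when ethanol was given, first as 5 ml to the roots and afterwards as vapour from a soaked filter paper of 3 cm2 that was renewed every hour. The groups used here are wild type at 0 and 2 h, Alc::LHY at 0 and 2 h, and wild type at 4 h and at the last time, 8 h in replicate I and 9 h in replicate S. The concentration of the ethanol and the clock time of the transfer are not given in the labels. The series as used here holds no wild type kept without ethanol to 2 h, so the effects of ethanol, of added liquid and handling, and of 2 more hours in constant light cannot be told apart. Ethanol was also given to the Alc::LHY seedlings, and no line carried the ethanol switch without the additional LHY. All 4 arrays of replicate S shared 1 slide and those of replicate I another, and wild type carried 1 dye throughout a replicate, so effects of dye, slide and replicate cannot be told apart within wild type. Whether S and I were grown as separate cultures is not in the labels. The p-values therefore cover the spread between these hybridised samples only, and that spread may be technical.

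Between 55.1% and 58.9% of the spots lay well above background in the wild-type channel of replicate S, and 57.6% to 62.4% in replicate I. Of the markers of the labelled tissue, all 5 shoot markers and 12 of the 14 root markers were above background on each wild-type channel at 0 and 2 h, while 3 of the 5 flower and seed markers did not pass the filter on dim probes. The change from 0 to 2 h had a standard deviation over the 21429 genes tested of 0.37 log2 units in replicate S and of 0.35 in replicate I, around a median of -0.001 in the fit. Across genes, which are not independent replicates, the changes of both replicates correlated at 0.48. They had the same sign for 13321 genes, which is 62.2% of those tested. The median standard error of a change was 0.14.

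At 2 h, 11 genes had risen and 2 had fallen in wild type (limma separate-channel fit over all 8 arrays, Benjamini-Hochberg adjusted p under 0.05). The 13 genes are 0.0607% of those tested, 0.0513% for the higher and 0.00933% for the lower ones. At an unadjusted p under 0.05 there were 1301 higher and 1177 lower genes, together 11.6%. The call rests on the pooled spread of all line-and-time groups, with n = 2 arrays at each time. With the wild-type channels alone no gene was called (0 genes, lowest adjusted p 0.243, 1894 genes at an unadjusted p under 0.05). The count was also 0 with median centring in place of loess (1087 genes at an unadjusted p under 0.05), 1 higher gene with the signals processed by the scanner software, 6 higher and 0 lower genes without normalization between arrays and 5 higher and 0 lower genes without the replicate block. It depended on single libraries as well, being 0 without the replicate S array at 0 h, 15 without the replicate I array at 0 h, with 0 of the 13 among them, 89 without the replicate S array at 2 h and 247 without the replicate I array at 2 h.

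**Figure D1:**
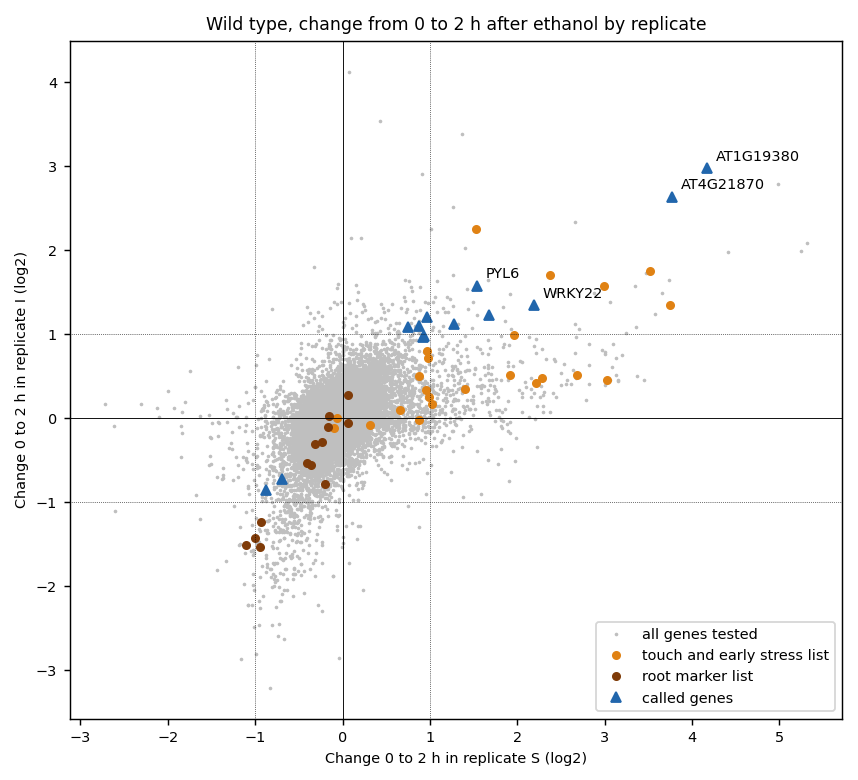
Change in wild-type level from 0 to 2 h after ethanol in replicate S (x axis, log2) against replicate I (y axis, log2) for each of the 21429 genes tested (grey), with the touch and early stress list (orange), the root marker list (brown) and the 13 called genes (blue triangles). Dotted lines mark 1 log2 unit. The called genes lie near the diagonal, the early stress genes mostly at larger values in replicate S than in replicate I, and the root markers mostly below 0 in both.

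The strongest rises among the called genes were those of AT1G19380 and AT4G21870, for which the gene table gives a locus and no name. AT1G19380 stood at a log2 signal of 8.09 in replicate S and 8.11 in replicate I at 0 h, and at 12.26 and 11.09 at 2 h. The change was 3.58 ± 0.44 (SE), or 11.9-fold (adjusted p = 0.0335). AT4G21870 went from 9.47 and 9.73 to 13.24 and 12.36, a change of 3.21 ± 0.34 or 9.22-fold (adjusted p = 0.0233). For both genes the levels at the 2 times did not overlap, and the rise was larger in replicate S. All 13 genes were well above background on each of the 4 wild-type channels.

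Among the called regulators, WRKY22, a transcription factor that acts downstream of MAP kinases in pathogen recognition, went from 7.01 in replicate S and 7.35 in replicate I to 9.19 and 8.71, a change of 1.77 ± 0.22 (adjusted p = 0.0337). PYL6 belongs to the PYR/PYL receptors of abscisic acid (ABA), the hormone of water stress. Its level was 6.77 and 6.90 at 0 h and 8.31 and 8.48 at 2 h, so that the replicates gave nearly the same change, 1.54 and 1.58 (fit 1.56 ± 0.15, adjusted p = 0.0203). The size depended on the processing: with the signals processed by the scanner software PYL6 was at 3.00 and WRKY22 at 2.80. PYL4 of the same receptor family lay just outside the threshold at 1.51 ± 0.22 (adjusted p = 0.0581), with 9.64 and 10.03 at 0 h and 11.50 and 11.19 at 2 h. RBP47B, an RNA-binding protein found in stress granules, moved from 10.15 in both replicates to 11.08 and 11.13 (0.96 ± 0.11, adjusted p = 0.0253).

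A transporter gene and a gene of lipid metabolism were also called. ABCB21, an ABC transporter that carries auxin, was at 6.75 in replicate S and 7.04 in replicate I at 0 h and at 8.44 and 8.27 at 2 h (1.46 ± 0.16, adjusted p = 0.0233). With processed signals the change of ABCB21 was 2.59. LACS1, a long-chain acyl-CoA synthetase that feeds cutin and wax synthesis, went from 10.38 and 9.95 to 11.26 and 11.05 (0.99 ± 0.13, adjusted p = 0.043). Its other probe, close to background, gave 0.39. The remaining called genes with higher levels have no name in the gene table. AT2G31730 changed by 1.2 ± 0.12 (adjusted p = 0.0203), AT4G32800 by 1.09 ± 0.13, AT5G13400 by 0.94 ± 0.11 and AT5G54130 by 0.92 ± 0.11 (adjusted p from 0.0253 to 0.0335 for these 3).

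Both called genes with lower levels moved by less than 1 log2 unit. AT1G19660, listed in the gene table under the synonym BBD2 as a bifunctional nuclease of basal defence, fell from 10.83 in replicate S and 11.26 in replicate I to 9.96 and 10.40 (-0.86 ± 0.11, adjusted p = 0.0459), and its other, dimmer probe gave -0.26. AT1G15740 fell from 11.05 and 11.28 to 10.36 and 10.55 (-0.71 ± 0.10, adjusted p = 0.0486). The genes just outside the threshold were AT4G16190 at -0.81, AT5G17350 at 1.21 and a transcript known by accession alone at 0.95 (adjusted p = 0.0563 for each).

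Levels at the later wild-type times, which share their 0 h samples with the change at 2 h and are given as a description, followed several courses. AT1G19380 stood 1.36 above its 0 h level at 4 h and 0.75 above it at 8-9 h, AT4G21870 1.01 and 0.66, WRKY22 0.50 and 0.25, and LACS1 0.19 and -0.04. In these genes 2 h was the highest of the 4 times in both replicates. AT5G54130 went on upward, to 1.93 at 4 h and 1.78 at 8-9 h. AT5G13400 stood at 0.67 and 1.01 and RBP47B at 0.60 and 0.69. AT1G19660 was still at -0.88 and -0.89, while AT1G15740 was back at -0.12 and 0.06.

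**Figure D2:**
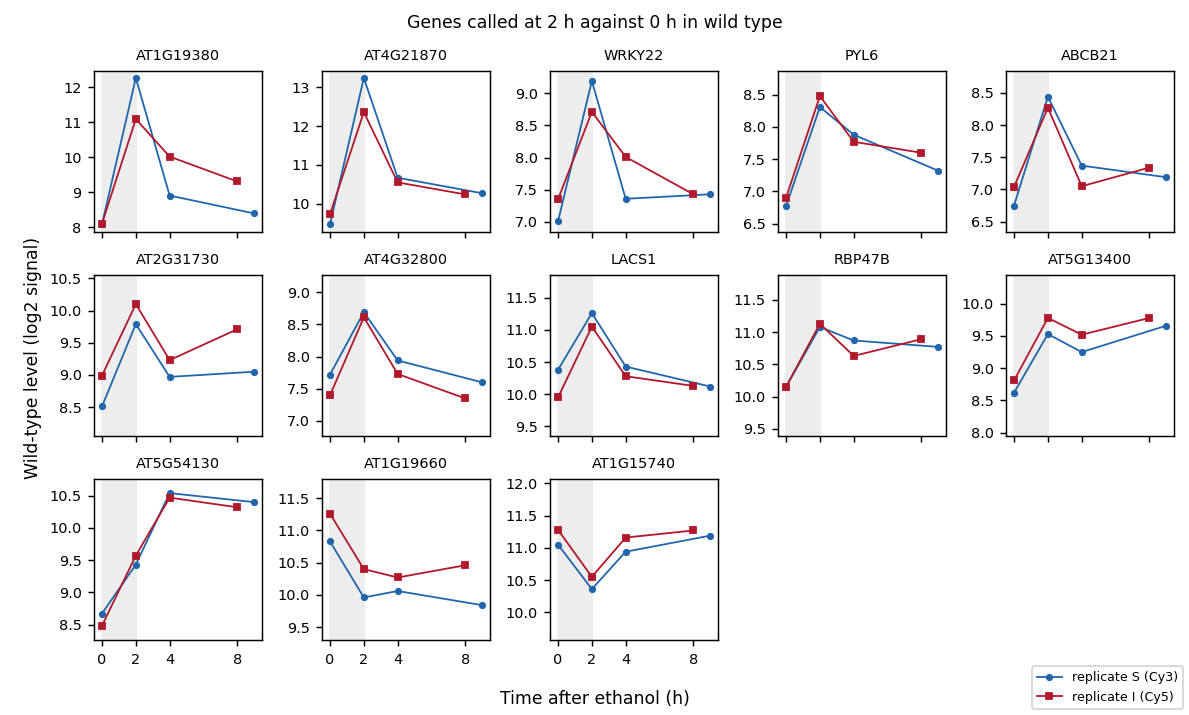
Wild-type level (y axis, log2 signal, each panel with its own range) of the 13 called genes at 0, 2, 4 and 8 or 9 h after ethanol (x axis, h) in replicate S (blue circles, Cy3) and replicate I (red squares, Cy5). The shaded span is the comparison of 0 with 2 h. A peak at 2 h is seen in most of the genes that rose, AT5G54130 stays high, and AT1G19660 stays low.

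Many genes that did not pass the test had values as large as these, with sizes that differed between the replicates. Over 1 log2 unit in the same direction in both replicates were 58 higher genes (0.271% of those tested) and 29 lower genes (0.135%), a rule and a set of examples that were chosen after the values were seen. These counts were 120 and 10 without normalization between arrays, 99 and 44 where loess was replaced by median centring, and 275 and 297 with the signals processed by the scanner software. Of the 58, 6 were called, and of the 29 none (0). Among the higher genes the change was larger in replicate S for 38 of 58, and among the lower genes it was larger in replicate I for 26 of 29. For the 58 the median change in replicates S and I was 1.67 and 1.43, and that of the 29 was -1.08 and -1.58. At 4 h, in the mean of both replicates, the median of the 58 stood 0.78 above 0 h. Of these, 50 were nearer to their 0 h level than at 2 h. The median of the 29 stood at -0.17. These means join replicates that differed. Most of the 29 were below their 0 h level in replicate S and above it in replicate I at 4 h, such as CASP2 at -0.95 and 0.37. Among the 58, CYP81F2 was at -0.04 in replicate S and 3.49 in replicate I.

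Besides called genes, the 58 included CYP81F2, a cytochrome P450 of indole glucosinolate modification (3.36 in replicate S and 1.09 in replicate I, adjusted p = 0.584), the sugar transporter gene ERD6 (3.25 and 1.01, adjusted p = 0.156), the xyloglucan-modifying enzyme gene XTH4 (1.44 and 1.3, adjusted p = 0.0862) and GBSS1, the starch synthase that makes amylose (1.27 and 1.71, adjusted p = 0.285). The largest value was that of a transcript known by accession alone, which was not well above background at 0 h. At 2 h it was 4.99 higher in replicate S and 2.79 in replicate I, or 14.8-fold in the fit (adjusted p = 0.0581). Among the 29 were several genes of root hairs: RHS13, named for its root hair specificity (-1.03 in replicate S and -1.99 in replicate I, adjusted p = 0.251), PRPL1, a proline-rich cell wall protein (-1.13 and -1.97, adjusted p = 0.309), and ADF11, an actin depolymerizing factor (-1.17 and -1.29, adjusted p = 0.244). CASP2 of the Casparian strip, the barrier in the root endodermis, was at -1.12 and -1.60 (adjusted p = 0.264), and CYP71A16, the marneral oxidase of a root triterpene pathway, at -1.08 and -2.23 (adjusted p = 0.277). AT1G19960, which the gene table leaves unnamed, went the other way in size, with -2.60 and -1.11.

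The remaining results describe 31 gene lists with 485 measured entries. No member of any list passed the adjusted test, so the counts and medians below are descriptions, to be read against the 6.07% of all genes that were higher and the 5.49% that were lower at an unadjusted p under 0.05, the 30.8% that were higher and the 31.3% that were lower in both replicates, and a median over all genes of -0.001. The members named are those with the smallest p of their list, apart from the clock, ethanol, proline and marker lists, and this choice was made after the values were seen.

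The touch and early stress list had the highest median, 0.88 over 23 measured genes, with 1.40 in replicate S and 0.48 in replicate I, and 1.62 relative to all genes with processed signals. Of the 23 genes, 15 were higher at an unadjusted p under 0.05 and 0 lower, 19 were higher in both replicates, and 5 by over 1 log2 unit in both. TCH4, a touch-induced xyloglucan endotransglucosylase, stood at 8.51 in replicate S and 8.54 in replicate I at 0 h and at 10.04 and 10.80 at 2 h (1.89 ± 0.28, adjusted p = 0.0581). The defence regulator WRKY18 went from 7.68 and 7.31 to 11.21 and 9.07 (2.64 ± 0.53, adjusted p = 0.135), and the mitochondrial carrier gene DIC2 from 8.31 and 8.16 to 11.30 and 9.73 (2.28 ± 0.43, adjusted p = 0.124). In these genes the levels at 0 and 2 h did not overlap, and at 2 h the replicates of WRKY18 and DIC2 lay more than 1 log2 unit apart. The zinc finger repressor ZAT10, which the gene table calls STZ, changed by 2.04 ± 0.60 (adjusted p = 0.249), WRKY40 by 2.55 ± 0.88 (adjusted p = 0.309) and the calmodulin-like TCH2 by 0.88 ± 0.24 (adjusted p = 0.216). At 4 h, in the mean of both replicates, they stood between 0.05 and 0.78 above their 0 h level. This mean hides a difference between replicates. WRKY40 was at -0.17 in replicate S and 1.43 in replicate I at 4 h, after 3.75 and 1.35 at 2 h. ZAT10 was at 0.11 and 1.45, after 2.38 and 1.71. TCH4 was at 0.17 and 0.42, WRKY18 at 0.03 and 0.85 and DIC2 at 0.56 and 0.77, each below its 2 h change in both replicates.

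Other stress hormone lists had smaller medians. Of 25 ethylene genes 10 were higher and 0 lower at an unadjusted p under 0.05 (median 0.26). The ethylene-responsive transcription factor genes EDF2 and EDF1, which the gene table calls RAV2 and TEM1, changed by 1.52 ± 0.35 and 1.56 ± 0.38 (adjusted p = 0.165 and 0.184), and ACS11, an enzyme of ethylene synthesis, by 0.92 ± 0.25 (adjusted p = 0.22). In replicate S these changes were 2.33, 2.42 and 1.43, against 0.71, 0.70 and 0.41 in replicate I. Of 19 jasmonate genes 8 were higher (median 0.52, with 0.79 in replicate S and 0.24 in replicate I). The repressor gene JAZ6 changed by 1.12 ± 0.24 (adjusted p = 0.152), and CYP94C1, which breaks jasmonate down, was at 1.1 in replicate S and 1.04 in replicate I (adjusted p = 0.218). Salicylate and defence genes had a median of 0.07 over 12, with PR5 at 1.1 ± 0.29 (adjusted p = 0.201). Heat shock genes had a median of 0.29 over 19, with HSFA2, a heat stress transcription factor, at 0.83 ± 0.30 (adjusted p = 0.342), and 11 genes of the unfolded protein response had a median of 0.19.

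Genes of ABA metabolism and of the ABA, drought and cold response had medians of -0.13 over 10 and -0.02 over 21. None (0) of the latter reached an unadjusted p under 0.05. CYP707A3, which breaks ABA down, changed by 1.59 ± 0.60 with 2.54 in replicate S and 0.65 in replicate I (adjusted p = 0.352). In the proline list P5CS1, the rate-limiting enzyme of proline synthesis, was at 11.73 in replicate S and 11.13 in replicate I at 0 h and at 10.95 and 10.40 at 2 h (-0.76 ± 0.16, adjusted p = 0.148). PRODH1, which breaks proline down and which the gene table calls ERD5, went from 8.58 and 9.92 to 9.74 and 11.23 (1.23 ± 0.51, adjusted p = 0.396). The levels of PRODH1 at the 2 times overlapped between replicates while both replicates differed in the same direction. Other, dimmer probes gave 0.64, 0.35 and 0.29 for PRODH1 and -0.35 for P5CS1. The other genes of the list were P5CS2 at 0.25, PRODH2 at -0.20 and P5CDH at -0.05.

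**Figure D3:**
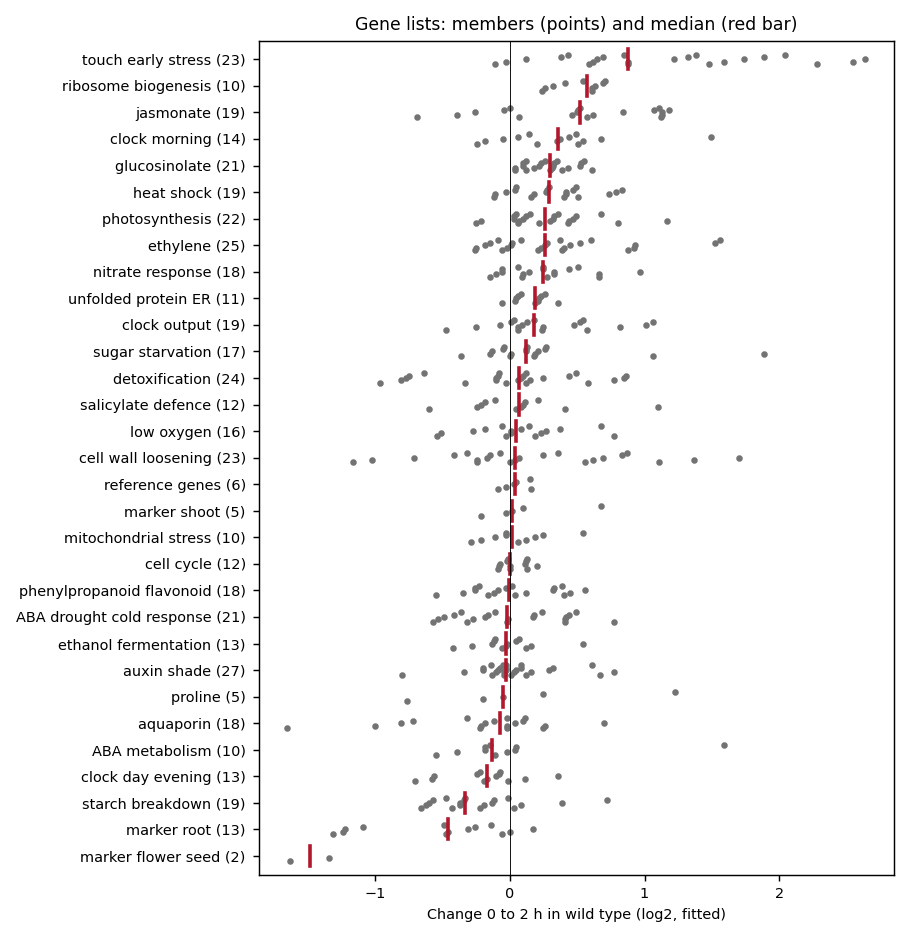
Fitted change from 0 to 2 h in wild type (x axis, log2) of each measured member (grey points) of the 31 gene lists (y axis, number of measured members in parentheses), with the median of each list (red bar). Touch and early stress genes lie highest with a median of 0.88, and root markers (-0.46) and the 2 measured seed storage genes (-1.48) lie lowest. No member passed the adjusted test.

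The enzymes that handle ethanol showed no common direction. The ethanol and fermentation list had a median of -0.03 over 13 genes, 1 higher and 1 lower at an unadjusted p under 0.05. ADH1, the alcohol dehydrogenase, was at 8.28 in replicate S and 7.89 in replicate I at 0 h and at 8.21 and 8.10 at 2 h (0.07 ± 0.34, adjusted p = 0.974). These levels overlapped. The aldehyde dehydrogenase genes ALDH2B4, ALDH2B7 and ALDH2C4 were at -0.03, -0.12 and 0.05, and the acetyl-CoA synthetase gene ACS at -0.06. ACN1, the peroxisomal enzyme that activates acetate and which the gene table calls AAE7, was at -0.54 in replicate S and -0.29 in replicate I (-0.42 ± 0.15, adjusted p = 0.321). ICL and MLS, the enzymes of the glyoxylate cycle, were at -0.28 ± 0.53 and 0.16 ± 0.50. Of the fermentation genes, PDC1 stood at -0.13, PDC2 at -0.11, LDH1 at -0.02 and ALAAT2 at 0.12, while ALAAT1, an alanine aminotransferase of low oxygen, stood at 0.54 ± 0.18 (adjusted p = 0.29). The 16 low oxygen genes had a median of 0.05, with HRE1, which the gene table calls ERF73, at 0.77 ± 0.26 (adjusted p = 0.309).

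No clock gene passed the adjusted test over the first 2 h, and CCA1 had the highest value. In the morning list 10 of 14 genes were higher in both replicates and the median was 0.36, or 0.67 relative to all genes with processed signals. CCA1 stood at 7.22 in replicate S and 7.05 in replicate I at 0 h and at 8.65 and 8.59 at 2 h, without overlap (1.49 ± 0.26, adjusted p = 0.0945). It went on to 3.53 above 0 h at 4 h and 4.37 at 8-9 h. The other, dimmer probe of CCA1 gave 0.81 at 2 h. RVE8, a MYB-like activator of evening genes, changed by 0.68 ± 0.20 (adjusted p = 0.252). LHY was not well above background on any wild-type channel at 0 or 2 h, where its probe gave 6.11 and 6.25 and then 6.34 and 6.43 (0.20, but 0.74 without normalization between arrays and 1.22 with processed signals), and LNK1 was not well above background there either. The other RVE genes stood at 0.49 (RVE3), 0.37 (RVE1), 0.35 (RVE7), 0.06 (RVE6), -0.05 (RVE2), -0.18 (RVE5) and -0.24 (RVE4), and the co-activator genes LNK2, LNK3 and LNK4 at 0.51, 0.44 and 0.54. At 8-9 h these LNK genes stood 4.25, 5.13 and 5.08 above 0 h.

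In the day and evening list 8 of 13 genes were lower in both replicates and the median was -0.17. FKF1, a blue light receptor that targets flowering repressors for breakdown, went from 10.63 in replicate S and 10.75 in replicate I to 9.84 and 10.14 (-0.70 ± 0.14, adjusted p = 0.137). The pseudo-response regulator PRR3 was at -0.56 and ELF4 of the evening complex at -0.58, both with larger errors (0.28 and 0.45). TOC1 stood at -0.24, ZTL at -0.19, PRR7 at -0.17, BOA at -0.22, LKP2 at -0.08, PRR5 at -0.07 and LUX at -0.01, and CHE at 0.36. PRR9 and GI were not well above background on any wild-type channel at 0 or 2 h. At 4 h TOC1 was 1.16 below 0 h, PRR5 0.88 below and LUX 1.01 below.

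Of 19 clock output genes 5 were higher at an unadjusted p under 0.05. BBX25, a B-box regulator that the gene table calls STH, changed by 1.01 ± 0.19 (adjusted p = 0.119), and the CONSTANS-like genes COL2 and COL1 by 1.06 ± 0.27 and 0.82 ± 0.19 (adjusted p = 0.2 and 0.165). Photosynthesis genes had a median of 0.26 over 22, with 13 higher in both replicates, and without normalization between arrays their median relative to that of all genes was -0.21. LHCB2.3 of the photosystem II antenna stood at 11 in replicate S and 10.51 in replicate I at 0 h and at 11.78 and 12.07 at 2 h (1.17 ± 0.41, adjusted p = 0.314), and 3.45 above 0 h at 4 h. Cross-hybridisation among near-identical LHCB copies was not examined, and the signal of single copies is uncertain.

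Starch breakdown genes had a median of -0.33 over 19, with 12 lower in both replicates and 7 lower and 1 higher at an unadjusted p under 0.05. The beta-amylase gene BAM6 went from 10.91 in replicate S and 10.09 in replicate I to 10 and 9.68 (-0.66 ± 0.13, adjusted p = 0.126), and the debranching enzyme gene ISA3 from 10.19 and 9.33 to 9.44 and 8.85 (-0.62 ± 0.17, adjusted p = 0.218). The levels of ISA3 at the 2 times overlapped between replicates, and those of BAM6 did not. The plastid alpha-amylase gene AMY3, the disproportionating enzyme gene DPE1 and the glucan phosphorylase gene PHS1 were at -0.57, -0.60 and -0.47. BAM9, which encodes a catalytically inactive beta-amylase-like protein and which the gene table calls BMY3, was at 0.72 ± 0.23 (adjusted p = 0.277). In the sugar starvation list the glucose 6-phosphate translocator gene GPT2 was at 2.97 in replicate S and 0.81 in replicate I (adjusted p = 0.201), and the list's median was 0.12 over 17.

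Ribosome biogenesis genes had a median of 0.57, with 10 of 10 higher in both replicates, 7 of them at an unadjusted p under 0.05, and a narrow range of 0.24 to 0.71. FIB2, a fibrillarin that methylates ribosomal RNA, stood at 8.21 in replicate S and 8.26 in replicate I at 0 h and at 8.82 and 9.07 at 2 h (0.71 ± 0.19, adjusted p = 0.212). The nucleolin gene NUC1, which the gene table calls NUC-L1, stood at 11.59 and 11.15 and then 12.11 and 11.88 (0.63 ± 0.18, adjusted p = 0.239). For both genes each level at 2 h exceeded each at 0 h. At 4 h they were 0.93 and 0.84 above 0 h.

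Growth and transport lists were mixed. Among 23 genes of cell wall loosening 7 were higher and 3 lower at an unadjusted p under 0.05, with XTH4 at 1.37 ± 0.23 (adjusted p = 0.0862) and XTH18 at 1.70 ± 0.38 (adjusted p = 0.155) above the expansin genes EXPA11 at -1.02 ± 0.25 and EXPA8 at -1.16 ± 0.36 (adjusted p = 0.194 and 0.269). Among 27 auxin and shade genes 5 were higher and 1 lower, with the auxin-responsive IAA19 at 0.67 ± 0.14 (adjusted p = 0.137). Of 18 aquaporin genes 1 was higher and 4 were lower. TIP2;3 was at -0.67 in replicate S and -2.63 in replicate I (adjusted p = 0.294). Medians were 0.30 for glucosinolate synthesis (21 genes) and 0.25 for the nitrate response (18), but relative to all genes 0.13 and 0.05 without normalization between arrays. They were 0.07 for detoxification (24), 0.02 for mitochondrial stress (10), 0.00 for the cell cycle (12) and -0.01 for phenylpropanoids and flavonoids (18).

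Root markers had a median of -0.46 over 13, with -0.31 in replicate S and -0.53 in replicate I, and of -0.24 relative to all genes without normalization between arrays. Of the 13, 10 were lower in both replicates and 6 were lower at an unadjusted p under 0.05. The root hair gene COBL9, which the gene table calls SHV2, went from 9.09 in replicate S and 8.63 in replicate I to 7.99 and 7.12 (-1.31 ± 0.38, adjusted p = 0.247), and CASP1 of the Casparian strip from 10.88 and 10.95 to 9.93 and 9.42 (-1.24 ± 0.41, adjusted p = 0.293). The root hair expansin genes EXPA7 and EXPA18 were at -1.22 and -1.09, and PYK10, an abundant root beta-glucosidase, at -0.47 ± 0.16 (adjusted p = 0.314). The regulators SHR, SCR and PLT2 stood at -0.06, 0.17 and 0.00, PLT2 not well above background. The summed signal of the root markers was 56400 units in replicate S and 60800 in replicate I at 0 h. It was 42700 in both at 2 h and 74700 and 82700 at 4 h. Both samples of 2 h thus lay below all those of 0 and 4 h. PYK10, the brightest marker with a mean log2 level of 15.65 at 0 h, makes up most of this sum. At 4 h COBL9 and EXPA7 stood at -0.78 and -0.83 against 0 h in replicate S, and at 0.53 and 0.87 in replicate I. The summed signal of the 5 shoot markers was 261000 and 283000 at 0 h and 238000 and 296000 at 2 h, and reference genes had a median change of 0.04. The measured seed storage genes CRA1 and CRC, the latter called CRU3 in the gene table, were at -1.34 and -1.63 and above background on 1 of 2 channels at 2 h. The other, dimmer probes of CRA1 gave -0.53 and -0.31. With no filter on dim probes the median of the flower and seed list was 0.01. In whole seedlings less root tissue in a sample and less RNA of these particular genes per root cell cannot be told apart. The part of the root signal in the other lower values was not tested.

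**Figure D4:**
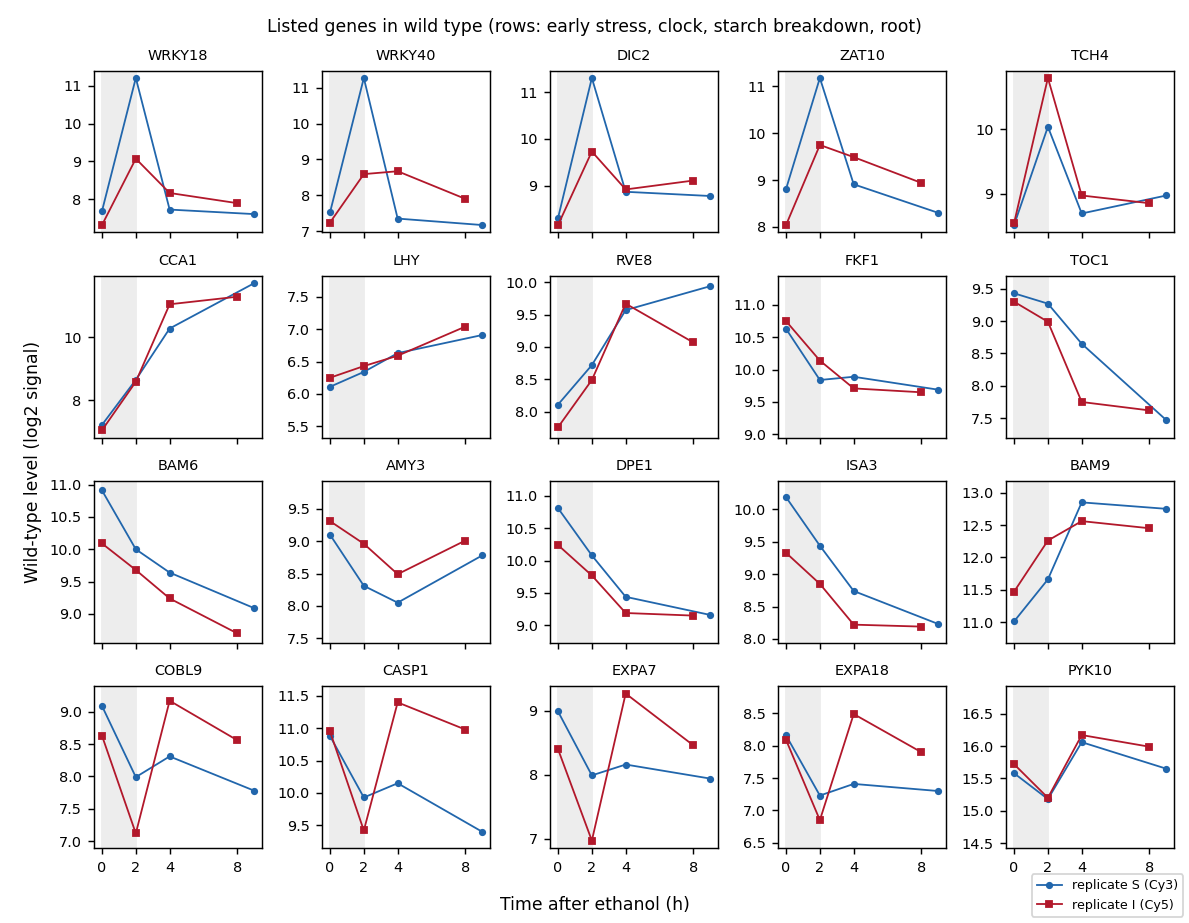
Wild-type level (y axis, log2 signal, each panel with its own range) of 20 listed genes at 0, 2, 4 and 8 or 9 h after ethanol (x axis, h) in replicate S (blue circles, Cy3) and replicate I (red squares, Cy5), in rows for early stress, clock, starch breakdown and root genes. Early stress genes peak at 2 h in most panels, CCA1 climbs through all 4 times in both replicates, and the root genes are at a low point at 2 h in replicate I, whereas in replicate S some of them stay low.

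The change of wild type was compared with that of the Alc::LHY line on the same arrays, as the difference of both changes from 0 to 2 h. In Alc::LHY 1563 genes rose and 1638 fell (14.9% of those tested, 7.29% higher and 7.64% lower), and for 1188 genes (5.54%) the change differed between the lines, 579 being higher (2.70%) and 609 lower (2.84%) in Alc::LHY (limma, adjusted p under 0.05). The last count was 0 with median centring in place of loess (1278 genes at an unadjusted p under 0.05), and it was 302 without the replicate S array at 0 h, 378 without the replicate I array at 0 h, 420 without the replicate S array at 2 h and 590 without the replicate I array at 2 h. The replicates of Alc::LHY correlated at 0.72 across genes, against 0.48 in wild type. The 13 genes called in wild type were chosen by the same change that the difference between the lines subtracts, which favours differences of the opposite sign. Of these 13, 5 changed differently in Alc::LHY. AT5G54130 stood at -0.20 there against 0.92 in wild type (difference -1.11 ± 0.13, adjusted p = 0.0014), AT2G31730 at 0.22 against 1.2 (adjusted p = 0.00352), AT4G32800 at 0.19 against 1.09 (adjusted p = 0.00806), LACS1 at 0.15 against 0.99 (adjusted p = 0.0115) and AT5G13400 at 0.33 against 0.94 (adjusted p = 0.0218).

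The other 8 did not pass the test of the difference, and each had itself changed in Alc::LHY in the same direction. AT1G19380 was at 2.76 in Alc::LHY and 3.58 in wild type, ABCB21 at 1.48 and 1.46, RBP47B at 1.08 and 0.96 and AT1G15740 at -1.1 and -0.71. For ABCB21 the difference was 0.03 ± 0.18, and for RBP47B 0.12 ± 0.13. Against 5.54% of all genes, none (0 of 23) of the touch and early stress list differed between the lines, with medians of 0.88 in wild type and 0.76 in Alc::LHY, and likewise none (0 of 10) of the ribosome biogenesis genes (0.57 and 0.74). A difference that misses the threshold does not show that the lines responded alike.

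Ranked among genes with a locus, those with the 5 highest differences had small values in wild type, from 0.19 to 0.58. A transcript known by accession alone, outside that ranking, had a difference of 4.91 (adjusted p = 0.0117) with a change of 2.38 in wild type, 1.37 in replicate S and 3.39 in replicate I, and 7.29 in Alc::LHY. SBTI1.1, a subtilisin-like protease gene, was at 7.29 in replicate S and 7.34 in replicate I at 0 h and at 7.55 and 8.07 at 2 h in wild type, against a change of 5.71 in Alc::LHY (difference 5.22 ± 0.27, adjusted p = 1.15e-05). AT5G62730 changed by 0.58 in wild type and 5.33 in Alc::LHY, EXL4 of the EXORDIUM-like family by 0.19 and 4.80, AT4G29640 by 0.28 and 4.87 and AT3G63360 by 0.26 and 4.77. In wild type AT5G62730 and AT4G29640 were not well above background at 0 h, and AT3G63360 neither at 0 nor at 2 h. Their wild-type values are limited by background. At the other end stood the transcription factor gene MYB47 with 0.13 in wild type and -2.02 in Alc::LHY, AT1G52000 with 0.00 and -2.04, FRO8, a ferric reductase gene, with -0.10 and -2.09, AT1G68570, a transporter named NPF3.1 among the synonyms of the gene table, with 0.11 and -1.85, and AT1G60590 with -0.77 and -2.68. AT1G60590 was at -1.49 in replicate S and -0.06 in replicate I of wild type.

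The following counts are to be read against the 5.54% of all genes whose change differed, a share at which a count of 0 in a short list is near the background. Listed genes with different changes included 9 of 21 glucosinolate genes, all lower in Alc::LHY, such as SUR1 with 0.52 in wild type and -0.56 in Alc::LHY (adjusted p = 0.00762). In the clock output list 3 of 19 differed, BBX25 (1.01 in wild type and 0.08 in Alc::LHY), COL1 (0.82 and -0.48) and COL2 (1.06 and -0.26). Of the 27 genes of both clock lists, LHY among them, 0 differed. Whether the LHY probe detects the additional copy was not examined. The median of the morning list was 0.36 in wild type and 0.23 in Alc::LHY, and that of the day and evening list -0.17 and -0.68. CCA1 was at 1.49 and 0.57 (difference -0.92 ± 0.30, adjusted p = 0.12). PDC2 stood at -0.11 in wild type and 2.03 in Alc::LHY (difference 2.14, adjusted p = 0.00384), and was the only 1 of 13 ethanol and fermentation genes to differ. Of the proline genes P5CS1 was at -0.76 against -2.05 and P5CS2 at 0.25 against 1.37. Root genes were split: COBL9 was at -1.31 in wild type and 1.21 in Alc::LHY (adjusted p = 0.011), EXPA7 at -1.22 and 1.28 (adjusted p = 0.0361) and PYK10 at -0.47 and 0.60 (adjusted p = 0.0107), while SCR and SHR were lower in Alc::LHY. Among the aquaporins 5 of 18 were higher and 2 lower in Alc::LHY, with TIP2;3 at -1.65 in wild type and 1.55 in Alc::LHY.

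**Figure D5:**
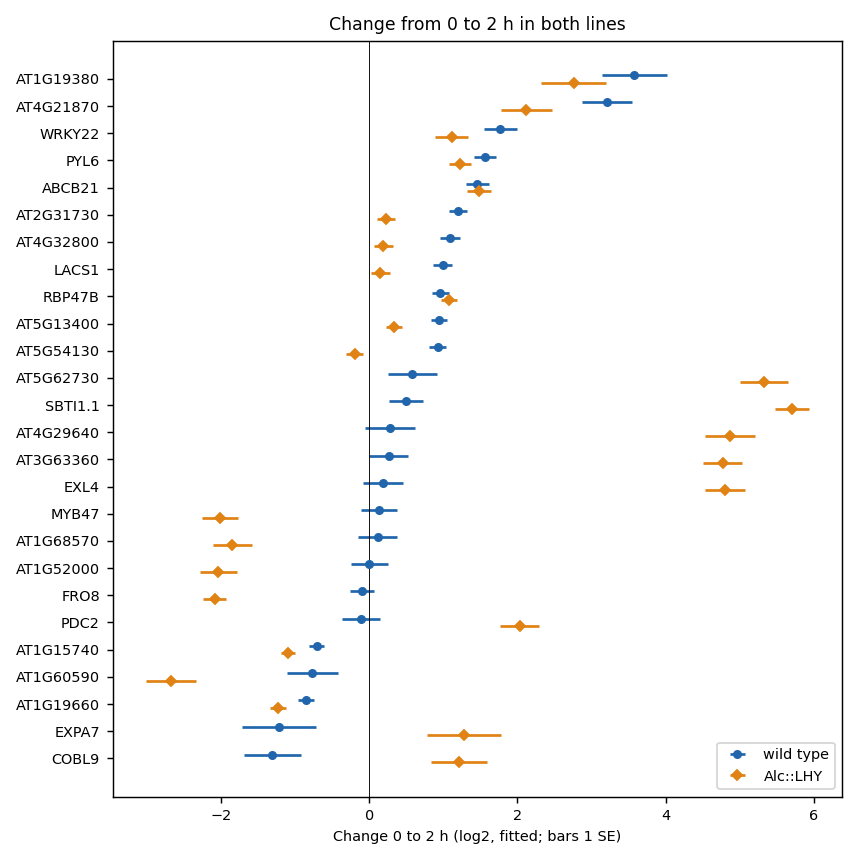
Fitted change from 0 to 2 h (x axis, log2; bars show 1 SE) in wild type (blue circles) and in Alc::LHY (orange diamonds) for the 13 genes called in wild type, the 5 highest and 5 lowest differences between the lines among genes with a locus, and PDC2, COBL9 and EXPA7 (y axis). The lines lie close for ABCB21 and RBP47B and far apart for SBTI1.1 (0.49 against 5.71) and COBL9 (-1.31 against 1.21).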

How the data were processed

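RNA of Alc::LHY and wild-type seedlings was hybridised together on 8 Agilent 2-colour arrays, with the dyes exchanged between replicates S and I. The deposited intensity values are each spot's median signal and median background in both channels, read by Agilent Feature Extraction 10.7.3.1 per the file headers. The deposited value table was not used.

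Background was corrected with normexp (offset 50), arrays were normalized by loess with control spots at weight 0, and Aquantile normalization was applied between arrays. Of the spots, 161 marked as outliers were left out. A probe was kept when 1 or both channels of at least 2 of the 8 arrays were well above background, and the brightest probe stood for a gene, giving 21429 genes, 18462 with a locus. Of 35161 systematic names 26259 matched the TAIR10.1 gene table. Probe levels were not compared between genes, and the number of arrays limits the precision.

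Changes were fitted with limma 3.58.1 (R 4.3.3, statmod 1.5.0) as separate channels: 8 groups of line and time, dye and replicate as terms, an intraspot correlation of 0.332, 6 residual and 3.56 prior degrees of freedom, and Benjamini-Hochberg adjustment over all genes. The replicate block was part of the fit because a replicate is a slide. The differences between replicates S and I at 0 h and at 2 h correlated at 0.62 across genes. This does not check the pairing, because S and I differ in dye and slide in the same way at both times. The fit was tested on simulated data for wild type at 2 h against 0 h with 21429 genes. It recovered 78 of 100 genes with a log2 change of 1 and 96 of 100 with a change of 2. There were 6 false calls. These shares do not carry over to the measured genes. Of those over 1 log2 unit in both replicates, 6 of 58 higher and 0 of 29 lower genes were called. How recovery depends on the spread of a gene was not tested.

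The naming rule allowed the 12 highest and 12 lowest called genes with a locus, which took in all 11 higher and 2 lower called genes. It also allowed up to 4 called genes per list, though no list member was called. All clock and ethanol genes are named, and the 5 highest and 5 lowest differences between the lines among genes with a locus. The comparisons, lists and members were chosen with earlier results of these data known. The members with the smallest p are given in their place. Alternatives covered normalization, background correction, probe filter and summary, the fit, and leaving out each array. Promoter sequences were not analysed here.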

Additional observations from a re-analysis of the deposited data

Results flagged for a closer look

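For 1188 genes the change from 0 to 2 h differed between Alc::LHY and wild type (limma test of the difference, adjusted p under 0.05). Among the genes named in the text, the change of Alc::LHY minus that of wild type was 5.22 for SBTI1.1, 4.75 for AT5G62730, 4.61 for EXL4, 4.59 for AT4G29640 and 4.52 for AT3G63360. It was 2.14 for PDC2, the pyruvate decarboxylase gene of fermentation, and 1.13 for P5CS2 and -1.30 for P5CS1 of proline synthesis. At the low end it was -2.15 for MYB47, -2.04 for AT1G52000, -1.99 for FRO8, -1.95 for AT1G68570 and -1.91 for AT1G60590. Of the genes called in wild type, AT5G54130 gave -1.11, AT2G31730 -0.97, AT4G32800 -0.90, LACS1 -0.84 and AT5G13400 -0.61. Wild type had the larger rise in each of these 5, but they were chosen by their wild-type change, which the difference subtracts.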

How the results depend on the processing

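The 13 genes called in wild type kept their direction under all 15 alternatives, and each stayed past the threshold in 4 to 11 of them, with adjusted p from 0.00148 to 0.971. Their number was 21 with quantile normalization of all channels, 22 without background subtraction (13 shared in both), 6 without normalization between arrays, 0 with median centring within arrays, 1 with processed signals, 5 without the replicate block, 0 with the wild-type channels alone, and 0 to 247 when 1 array was left out. The share of higher genes was 84.6% and lay between 25.8% and 100% where genes were called. Differences between the lines numbered 1907 without normalization between arrays, 0 with median centring (lowest adjusted p 0.106), 1861 without background subtraction, 1617 without the replicate block, and 302 to 590 when 1 array was left out. Genes over 1 log2 unit in both replicates, higher and lower, numbered 120 and 10 without normalization between arrays, 99 and 44 with median centring, and 275 and 297 with processed signals. The median change of all genes was 0.182 without normalization between arrays. Relative to it, list medians then were 0.36 for ribosome biogenesis and -0.50 for starch breakdown, against 0.57 and -0.33, and with processed signals the median was 0.48 for heat shock, against 0.29, and -3.49 for flower and seed, against -1.48.

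Some clock, ethanol, proline and photosynthesis genes turned direction, none of them past the threshold in either fit. With quantile normalization LDH1 (AT4G17260) was at 0.00 and CA1 at -0.03. Without normalization between arrays PRR7 was at 0.19, PRR5 at 0.03, GI at 0.34, LKP2 at 0.06, PDC1 (AT4G33070) at 0.24, LDH1 (AT4G17260) at 0.19, CA1 at -0.34 and RCA at -0.23. With median centring RVE2 was at 0.11, PRR5 at 0.01, LUX (PCL1) at 0.12, PDC2 at 0.10, ALDH2B4 at 0.17, ALDH2B7 at 0.01, ACS at 0.14, LDH1 (AT4G17260) at 0.04, P5CDH (ALDH12A1) at 0.11, GLDP1 at 0.16 and RBCS1A at 0.06. With processed signals ALDH2B4 was at 0.00 and GLDP1 at 0.08. With all probes of a gene averaged, PRR7 (0.03), LUX (PCL1, 0.03), LDH1 (AT4G17260, 0.03), CA1 (-0.12) and RBCS1A (0.01) turned. Leaving out 1 array gave -0.21 to 0.94 for RVE1, -0.67 to 0.57 for RVE2, -0.52 to 0.04 for RVE4 (LCL1), -0.03 to 0.14 for RVE6 (AT5G52660), -0.05 to 0.32 for LNK1 (AT5G64170), -0.02 to 0.23 for PRR9, -0.36 to 0.03 for PRR7, -0.17 to 0.02 for PRR5, -0.31 to 0.11 for GI, -0.27 to 0.25 for LUX (PCL1), -0.84 to 0.39 for BOA and -0.22 to 0.07 for LKP2. It gave -0.15 to 0.29 for ADH1, -0.79 to 0.53 for PDC1 (AT4G33070), -0.14 to 0.09 for ALDH2B4, -0.24 to 0.35 for ALDH2C4, -0.27 to 0.15 for ACS, -0.07 to 0.03 for LDH1 (AT4G17260), -0.10 to 0.33 for ALAAT2, -1.32 to 0.75 for ICL, -0.60 to 0.93 for MLS, -0.15 to 0.06 for P5CDH (ALDH12A1), -0.08 to 0.11 for CA1 and -0.27 to 0.20 for GLDP1. The cause was not tested.

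With 2 arrays at each time, a fit without 1 array leaves a lone sample that is assumed to vary like the other groups, and it kept the intraspot correlation of the full set. Levels near background set a limit for LHY, LNK1, PRR9 and GI, and in wild type also for AT5G62730, AT4G29640 and AT3G63360.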
